A study of Homo sapiens with 9 samples.

Results

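The matrix proteases and their inhibitors are the genes of MDA-MB-231 cells described here: matrix metalloproteinases (MMPs), the ADAM and ADAMTS families, the TIMPs and RECK, the plasminogen activators and the urokinase receptor, 3 cathepsins, basigin and heparanase. The members were chosen by symbol, and 43 of the 44 genes asked for had at least 1 probe set that the array annotation maps to 1 symbol only, out of 19775 genes measured in this way. SERPINB2, the remaining gene, was not analysed here. Of these, 30 had several probe sets and 13 had 1, for 107 in all, and the one with the highest mean signal over all arrays stood for its gene.

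MDA-MB-231 is an established triple-negative human breast cancer line of mesenchymal character. The 3 groups were cells transfected with Qmimic, with Dmimic or with AllStar, the negative control, each at 10 nM with the same lipid transfection reagent, and RNA was taken 48 h later. The labels give the mimics by these 2 names without a sequence, and the title of the series is about human miR-34a. Each group had 3 biological replicates and each replicate 1 Affymetrix HG-U133 Plus 2.0 array, so 1 cell line, 1 dose and 1 time stand behind every value, and no untransfected group was analysed here.

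Invasive cells remodel the matrix around them with secreted and membrane-bound proteases that are made as inactive precursors and held in check by dedicated inhibitors. Plasminogen activators turn plasminogen into plasmin, which degrades matrix and activates some MMPs, while ADAMs shed growth factors, cytokines and receptors from the cell surface and ADAMTS enzymes are secreted and act on proteoglycans and other matrix proteins. MDA-MB-231 is widely used as an invasive line in which urokinase and membrane-type MMPs are studied. A microRNA mimic acts mainly through the seed at the 5′ end of its guide strand, which pairs with target messages and lowers their translation or stability.

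The mature miR-34a-5p is shown because it is the microRNA that the series title names. Its RefSeq sequence lies at chr1:9151735-9151756 on the minus strand of GRCh38.p14, and the capitals mark the seed, bases 2 to 8.

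hsa-miR-34a-5p: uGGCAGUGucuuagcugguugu

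The promoter windows of TIMP3 and ADAMTS12 are shown because these 2 genes had the changes the results turn on, and both windows are in the RefSeq-derived table. Each window runs from 250 bases before to 50 bases after the gene's start, in GRCh38.p14, at chr22:32801455-32801754 on the plus strand for TIMP3 and chr5:33891941-33892240 on the minus strand for ADAMTS12. The capitals mark a match to the AP-1 motif TGANTCA, which was searched on both strands. AP-1 is the Jun and Fos factor classically tied to MMP promoters.

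TIMP3: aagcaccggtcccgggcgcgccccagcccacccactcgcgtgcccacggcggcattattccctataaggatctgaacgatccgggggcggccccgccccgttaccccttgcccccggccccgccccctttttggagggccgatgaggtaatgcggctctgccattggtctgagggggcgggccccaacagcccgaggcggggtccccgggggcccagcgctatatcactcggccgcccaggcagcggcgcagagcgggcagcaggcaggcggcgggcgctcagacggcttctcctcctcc

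ADAMTS12: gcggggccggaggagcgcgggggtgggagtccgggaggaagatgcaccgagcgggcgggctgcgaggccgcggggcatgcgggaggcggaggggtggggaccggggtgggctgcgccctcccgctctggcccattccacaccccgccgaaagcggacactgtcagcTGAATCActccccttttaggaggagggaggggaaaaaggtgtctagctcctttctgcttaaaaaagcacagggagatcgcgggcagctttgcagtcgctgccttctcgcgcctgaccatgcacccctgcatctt

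For comparison, the 60-base stretches of MMP7 and MMP10 that hold both motifs searched, AP-1 and the TATA box TATAAA on the gene's strand, are given with both in capitals. They lie at chr11:102530763-102530822 and chr11:102780644-102780703, on the minus strand of GRCh38.p14.

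MMP7: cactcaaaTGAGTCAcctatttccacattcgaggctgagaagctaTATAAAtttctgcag

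MMP10: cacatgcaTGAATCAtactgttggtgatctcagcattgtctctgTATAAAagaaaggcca

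Of the 43 members, 24 had a window in the table. The others, MMP1 and ADAMTS1 among them, had none, so their promoters were not searched for either motif. The AP-1 motif was found in 4 of them (ADAMTS12, MMP7, MMP10 and PLAUR), or 16.7%, against 7.76% of all 27305 windows. The match ended 77 bases before the start in ADAMTS12, 60 bases in MMP7 and in MMP10, and 179 bases in PLAUR. TATAAA was found in 2 member windows (MMP7 and MMP10), or 8.33%, against 7.71% of all windows. The TIMP3 window held neither motif. MMP7, MMP10, MMP1, MMP3 and MMP13 lie close together in gene order on chromosome 11, and ADAMTS1 and ADAMTS5 are next to each other on chromosome 21.

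All values are the authors' log2 RMA signals per probe set, and a difference of 1 on this scale is a doubling of signal. Probe sets bind with different strength, so levels are compared between arrays and not between genes. In 8 arrays the correlations over all probe sets were 0.993 to 0.998. AllStar replicate 3 stood apart from them, at 0.974 to 0.981 with the other arrays, and its interquartile range was 2.99 against 3.41 to 3.53. Results are therefore given from the fit of all 9 arrays and from the fit of 8 arrays without it, which leaves 2 AllStar arrays. The line's markers VIM and CD44 had high signals, with means of 13.68 and 12.07 in Qmimic, 13.69 and 12.08 in Dmimic, and 13.63 and 11.87 in AllStar, and the epithelial gene CDH1 had 3.55, 3.66 and 3.79. SPARC, another mesenchymal gene listed as a marker, was low in all groups, with means of 3.65, 3.80 and 3.79 in Qmimic, Dmimic and AllStar. Of 5 genes listed as low in this line, 3 had a mean level above the median of all probe sets. EPCAM had means of 8.06 in Qmimic, 7.85 in Dmimic and 7.95 in AllStar cells. In the same order of groups, GATA3 had 8.47, 8.53 and 8.05, ESR1 6.84, 6.87 and 6.99, and PGR, below that median, 3.87, 4.02 and 4.27. Of the leukocyte genes, 3 were measured: PTPRC had 3.91, 3.81 and 4.01, CD3E 5.38, 5.53 and 5.60, and CD14 6.08, 6.09 and 5.79, the last 2 genes above that median. Of 5 fibroblast and endothelial genes, 2 were above it (COL1A1 and PECAM1). Their part in the results was not tested. RNA came from whole wells, so fewer cells of a kind and less RNA per cell cannot be told apart.

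Most members differed little between the mimics and AllStar. With all 9 arrays, no member passed the call of adjusted p under 0.05 and at least 1.5-fold in limma for Qmimic against AllStar (0 of 43, with 0% of all genes called) or Dmimic against AllStar (0 of 43, 0.0101% of genes). Nor did any for the mean of both mimics against AllStar (0 of 43, 0.131%) or Qmimic against Dmimic (0 of 43, 0%). By adjusted p alone in the fit of 9 arrays the members' count was also 0 in each comparison, and 0%, 0.0101%, 0.142% and 0% of genes passed in the same order. At an unadjusted p under 0.05, 15 members stood out for Qmimic (19.7% of genes did), 11 for Dmimic (17.3%), 18 for the mean of both (24.1%) and 3 for Qmimic against Dmimic (2.54%).

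Without AllStar replicate 3, TIMP3 was called higher in Qmimic, the 1 member of 43 called there, against 0.693% of genes. No member was called for Dmimic (0 of 43, 1.27% of genes), for the mean of both mimics (0 of 43, 1.04%) or for Qmimic against Dmimic (0 of 43, 0.0961%). By limma's adjusted p alone, 8 members passed in at least 1 comparison of the fit of 8 arrays, 6 of them higher and 2 lower in the mimics. The share of all genes that pass in at least 1 comparison was not computed, so shares are given by comparison. For Qmimic these were ADAM17, ADAMTS12 and TIMP3, all higher (3 of 43, against 2.09% of genes in either direction and 1.32% higher). For Dmimic they were MMP1, ADAMTS1 and ADAMTS12, higher (3 of 43, against 1.79% of genes), and RECK, lower (1 of 43, against 1.53%), for 3.32% of genes in either direction. Averaged over both mimics, the members that passed were MMP1, ADAMTS12, TIMP3 and PLAT, higher (4 of 43, against 2.49% of genes), and TIMP4 and RECK, lower (2 of 43, against 1.54%), for 4.03% of genes in either direction. For Qmimic against Dmimic no member passed by adjusted p alone (0 of 43, 0.288% of genes). For Qmimic no member was lower by adjusted p (0 of 43, against 0.769% of genes). The unadjusted counts in the fit of 8 arrays were 16 for Qmimic (20.9% of genes), 13 for Dmimic (21.3%), 14 for the mean of both (23% of genes) and 10 for Qmimic against Dmimic (11.7%). The 2 mimics' comparisons with AllStar share the AllStar arrays, so their counts are not independent.

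**Figure D1:**
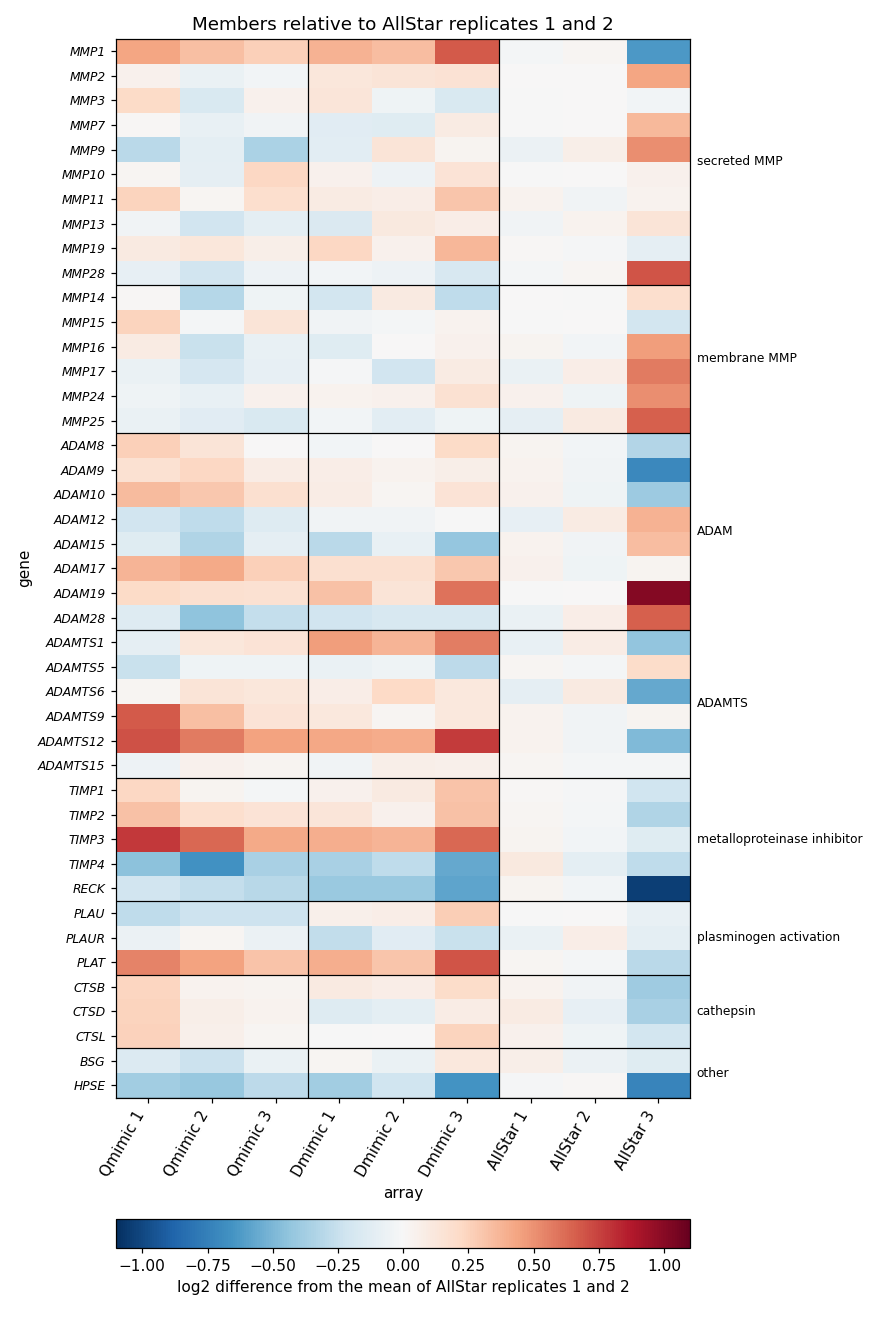
The log2 difference of each of the 43 members on each of the 9 arrays from the mean of AllStar replicates 1 and 2, by class, with red for higher and blue for lower. MMP1, ADAMTS12, TIMP3 and PLAT are red on all 6 mimic arrays, and TIMP4 and RECK are blue on all 6. They are among 15 members whose mimic arrays all lay beyond AllStar replicates 1 and 2, against 26.3% of genes. The column of AllStar replicate 3 spans -1.04 (RECK) to 1.01 (ADAM19).

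MMP1, the interstitial collagenase that cleaves fibrillar collagen, was the secreted MMP with the largest difference. Its log2 signal was 10.17, 10.07 and 10.00 on the Qmimic arrays and 10.11, 10.07 and 10.41 on the Dmimic arrays, against 9.71, 9.76 and 9.10 on the AllStar arrays. All 6 mimic arrays lay above all 3 AllStar arrays, of which replicate 3 was by far the lowest. In limma with 9 arrays the difference was 0.56 for Qmimic (adjusted p 0.22) and 0.68 for Dmimic (1.60-fold, adjusted p 0.168). In the fit of 8 arrays it was 0.34 for Qmimic (1.27-fold, adjusted p 0.112) and 0.46 for Dmimic (1.38-fold, adjusted p 0.0454 in limma). MMP1 thus rose with Dmimic by adjusted p in the fit of 8 arrays, at less than 1.5-fold.

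The other secreted MMPs gave no adjusted p under 0.05 in limma in either fit. MMP9, a gelatinase, had 5.70, 5.89 and 5.65 in Qmimic, 5.88, 6.13 and 6.02 in Dmimic, and 5.93, 6.06 and 6.51 in AllStar. Its difference for Qmimic was -0.42 with 9 arrays (adjusted p 0.25) and -0.25 without AllStar replicate 3 (adjusted p 0.211, limma), and Dmimic's 3 arrays overlapped AllStar's. MMP28, epilysin, had 7.02 to 7.18 in Qmimic and 7.05 to 7.20 in Dmimic, below AllStar's 7.21, 7.26 and 7.92, and its difference for Qmimic was -0.35 with 9 arrays and -0.12 with 8. MMP19, a broad-acting MMP, lay just above AllStar in all 6 mimic arrays, at 6.54 to 6.60 in Qmimic and 6.53 to 6.84 in Dmimic against 6.37 to 6.49 in AllStar. The gelatinase MMP2, the stromelysins MMP3 and MMP10, matrilysin (MMP7), the collagenase MMP13 and stromelysin-3 (MMP11) differed from AllStar by -0.17 to 0.16 in both mimics and both fits. Of these, MMP2, MMP3, MMP7, MMP10 and MMP13 were below the median of all probe sets by mean signal, so little can be read from them.

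The membrane-type MMPs were near AllStar levels. MMP14, the membrane collagenase that activates pro-MMP2, had 9.65, 9.33 and 9.60 in Qmimic and 9.44, 9.74 and 9.36 in Dmimic, against 9.65, 9.63 and 9.83 in AllStar. The groups overlapped for Qmimic and for Dmimic. The difference for Qmimic was -0.18 with 9 arrays (95% interval -0.46 to 0.10) and -0.12 with 8 (-0.39 to 0.16), and for Dmimic -0.19 and -0.13, and MMP14's other 3 probe sets were also lower in both. The family also holds the transmembrane MMP15, MMP16 and MMP24 and the lipid-anchored MMP17 and MMP25. Of the 6 genes 1, MMP15, had a positive difference for each mimic with 9 arrays. Their median was -0.22 for Qmimic and -0.19 for Dmimic with 9 arrays, and -0.10 and -0.04 without AllStar replicate 3, against -0.02 and -0.01 over all genes with 9 arrays and -0.01 and 0.01 with 8. In 5 of the 6, all but MMP15, AllStar replicate 3 was the highest AllStar array.

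Among the 8 ADAMs, 1 had an adjusted p under 0.05 on its representative probe set: ADAM17, for Qmimic without AllStar replicate 3. ADAM17 (TACE) is the sheddase of TNF and of several EGF receptor ligands. Its signal was 9.70, 9.74 and 9.59 in Qmimic and 9.50, 9.50 and 9.62 in Dmimic, against 9.37, 9.27 and 9.35 in AllStar. Neither mimic overlapped AllStar, and here AllStar replicate 3 lay between the other AllStar arrays. The difference for Qmimic was 0.34 with 9 arrays (1.27-fold, adjusted p 0.184) and 0.35 with 8 (1.28-fold, adjusted p 0.049, limma). For Dmimic it was 0.21 and 0.22 (adjusted p 0.351 and 0.166). The 2 other probe sets of ADAM17 also had positive differences, and 1 of them passed in the fit of 8 arrays for Qmimic (0.42, adjusted p 0.0382, limma).

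ADAM10, the sheddase of Notch receptors and E-cadherin, had 11.26, 11.22 and 11.09 in Qmimic and 11.00, 10.94 and 11.07 in Dmimic, against 10.97, 10.87 and 10.52 in AllStar. Qmimic lay above all AllStar arrays and Dmimic overlapped them. In limma the difference for Qmimic was 0.41 with 9 arrays (adjusted p 0.215) and 0.27 with 8 (adjusted p 0.0999), and for Dmimic 0.22 and 0.08. Its 2 other probe sets gave -0.02 and -0.05 for Qmimic with 8 arrays, so the probe sets disagreed. ADAM28, first described in lymphocytes, and ADAM15, whose disintegrin domain binds integrins, lay below all AllStar arrays in both mimics. ADAM28 had 5.65 to 5.95 in Qmimic, 5.88 to 5.92 in Dmimic, 6.02 to 6.75 in AllStar, and ADAM15 8.23 to 8.46, 8.14 to 8.48 and 8.52 to 8.90 in the same order. Neither passed, although the second probe set of ADAM15 did for Dmimic with 8 arrays (-0.49, 1.40-fold, adjusted p 0.0253 in limma). ADAM19, a meltrin, had 9.47 on AllStar replicate 3 against 8.46 on each of the other AllStar arrays, so its difference for Qmimic was -0.15 with 9 arrays and 0.19 with 8. ADAM9, a sheddase of EGF receptor ligands, had 9.85 on that array against 10.59 and 10.52, and its difference for Qmimic was 0.40 and 0.16 in the 2 fits. ADAM8, a protease best known from leukocytes, and ADAM12, which cleaves IGF-binding proteins, had no adjusted p under 0.05 in limma either.

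ADAMTS12, a secreted enzyme that can degrade cartilage oligomeric matrix protein, had the largest difference of the 43 members for each mimic with 9 arrays. Its signal was 10.25, 10.13 and 9.99 in Qmimic and 9.98, 9.96 and 10.32 in Dmimic, against 9.59, 9.51 and 9.07 in AllStar. The lowest mimic array, 9.96, was above the highest AllStar array, 9.59. In limma with 9 arrays the difference was 0.73 for Qmimic (1.66-fold, adjusted p 0.162) and 0.69 for Dmimic (1.62-fold, adjusted p 0.133). In the fit of 8 arrays it was 0.57 for Qmimic (1.49-fold, adjusted p 0.0403) and 0.53 for Dmimic (1.45-fold, adjusted p 0.0443), so ADAMTS12 rose with both mimics by adjusted p there, just under 1.5-fold. Its second probe set, with a mean signal of 5.50, gave -0.04 for both mimics and thus did not move with the first.

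ADAMTS1, which cleaves the proteoglycans aggrecan and versican, was higher in Dmimic. Its signal was 9.65, 9.87 and 9.90 in Qmimic and 10.21, 10.12 and 10.31 in Dmimic, against 9.66, 9.83 and 9.32 in AllStar. Qmimic overlapped AllStar, and Dmimic lay above all arrays of both. For Dmimic the difference was 0.61 with 9 arrays (1.53-fold, adjusted p 0.133) and 0.47 with 8 (1.38-fold, adjusted p 0.0379, limma), and for Qmimic 0.20 and 0.06 (adjusted p 0.419 and 0.801). The other probe set had 7.73 to 7.93 in Qmimic and 8.20 to 8.38 in Dmimic, against 7.93, 7.96 and 7.11 in AllStar, the same order of the mimics.

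The remaining ADAMTS genes had no adjusted p under 0.05 in limma. ADAMTS9, which also cleaves versican and aggrecan, had 7.11, 6.77 and 6.59 in Qmimic and 6.55, 6.46 and 6.55 in Dmimic, against 6.48, 6.39 and 6.46 in AllStar, with Qmimic replicate 1 well above the rest. ADAMTS15 varied least, between 9.18 and 9.30 on all 9 arrays. ADAMTS5, the aggrecanase that neighbours ADAMTS1, was below the median signal (3.60 to 4.09). ADAMTS6 had 6.84 to 6.96 in Qmimic and 6.89 to 7.04 in Dmimic, against 6.72, 6.92 and 6.26 in AllStar. Of the 6 ADAMTS genes, 5 had positive differences for each mimic with 9 arrays, against 47% (Qmimic) and 48.1% (Dmimic) of all genes. The medians of the 6 were 0.24 and 0.20 for Qmimic and Dmimic, against -0.02 and -0.01 over all genes. In the fit of 8 arrays they were 0.08 and 0.11, against -0.01 and 0.01. ADAMTS1, ADAMTS12 and ADAMTS15 had mean signals of 9 or more. Of all genes of that signal, 78.6% and 77.3% were positive with 9 arrays.

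**Figure D2:**
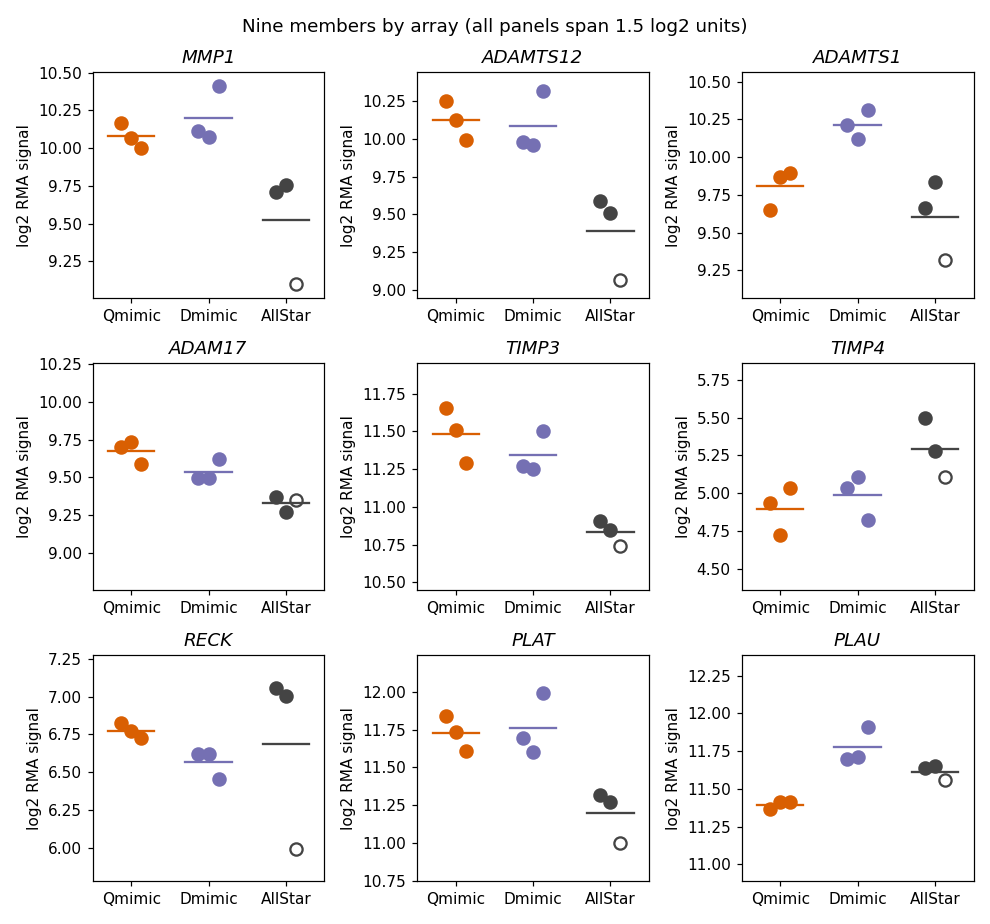
Log2 RMA signal on each array for 9 members, with a bar at the group mean and AllStar replicate 3 as an open circle; every panel spans the same range of signal. MMP1, ADAMTS12, ADAM17, TIMP3 and PLAT lie higher on all 6 mimic arrays, and PLAU lies lower in Qmimic and higher in Dmimic than on every AllStar array.

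TIMP3, the matrix-bound inhibitor of MMPs, of ADAM17 and of aggrecanases, was the 1 called member. Its signal was 11.66, 11.51 and 11.29 in Qmimic (11.49 ± 0.18, SD, n = 3) and 11.27, 11.25 and 11.51 in Dmimic (11.34 ± 0.14), against 10.91, 10.85 and 10.74 in AllStar (10.83 ± 0.08). All 6 mimic arrays lay above all AllStar arrays, and AllStar replicate 3 was close to the others of its group. In limma the difference for Qmimic was 0.65 with 9 arrays (SE 0.12, 1.57-fold, adjusted p 0.13) and 0.61 with 8 (SE 0.11, adjusted p 0.03). For Dmimic it was 0.51 (adjusted p 0.135) and 0.47 (1.38-fold, adjusted p 0.0582).

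The call of TIMP3 depended on single arrays, on the fit and on 1 probe set. Leaving out 1 more array ended it for Qmimic replicate 1 (adjusted p 0.0983) or Qmimic replicate 2 (0.116), both in limma. It also ended without AllStar replicate 1 (difference 0.64) or AllStar replicate 2 (0.58). Either leaves 1 AllStar array, where almost no probe set of any gene is called. With 8 arrays it was also lost with the replicate number as a block (0.62, adjusted p 0.101, limma) and with cyclic loess, where the difference of 0.58 was under 1.5-fold (adjusted p 0.0349, limma). The 3 other TIMP3 probe sets gave 0.09, 0.14 and 0.41 for Qmimic with 8 arrays and 0.02, -0.05 and 0.24 for Dmimic. None of these 3 passed in limma (adjusted p 0.632, 0.649 and 0.111 for Qmimic), and Qmimic and AllStar arrays overlapped in 2 of them.

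The other TIMPs differed less from AllStar, or in the other direction. TIMP1, a broad secreted MMP inhibitor, had 12.56, 12.36 and 12.31 in Qmimic and 12.38, 12.43 and 12.65 in Dmimic, against 12.35, 12.32 and 12.11 in AllStar. TIMP2, which also takes part in the activation of pro-MMP2 by MMP14, had 12.37, 12.23 and 12.19 in Qmimic and 12.18, 12.10 and 12.37 in Dmimic, against 12.07, 12.02 and 11.72 in AllStar. TIMP1 overlapped AllStar in Qmimic, and TIMP2 did in neither mimic. In limma TIMP1 differed by 0.15 and 0.23 for Qmimic and Dmimic with 9 arrays and 0.08 and 0.15 with 8, and TIMP2 by 0.33 and 0.28, then 0.22 and 0.17, with no adjusted p under 0.05.

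TIMP4, the fourth inhibitor of the family, was below the median signal. It had 4.93, 4.72 and 5.03 in Qmimic and 5.04, 5.11 and 4.82 in Dmimic, against 5.50, 5.28 and 5.11 in AllStar. All mimic arrays were below AllStar replicates 1 and 2, and AllStar replicate 3 lay beside the highest mimic array. For the mean of both mimics the limma difference was -0.35 with 9 arrays (adjusted p 0.166) and -0.45 with 8 (1.36-fold, adjusted p 0.0476).

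RECK, a membrane-anchored inhibitor of several MMPs, turned on 1 array. Its signal was 6.82, 6.77 and 6.73 in Qmimic and 6.62, 6.62 and 6.45 in Dmimic, against 7.06, 7.00 and 5.99 in AllStar. The mimic arrays were all below AllStar replicates 1 and 2 and all above replicate 3. In limma the difference was 0.09 for Qmimic and -0.12 for Dmimic with 9 arrays (adjusted p 0.837 and 0.809). With 8 arrays it was -0.26 for Qmimic (adjusted p 0.11) and -0.47 for Dmimic (1.38-fold, adjusted p 0.0199), so RECK fell with Dmimic by adjusted p in that fit. None of its 4 other probe sets moved with it: their differences for Dmimic with 8 arrays were between -0.02 and 0.07.

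PLAT, tissue-type plasminogen activator, was higher on all mimic arrays. Its signal was 11.84, 11.74 and 11.61 in Qmimic and 11.70, 11.60 and 11.99 in Dmimic, against 11.31, 11.27 and 11.00 in AllStar, with no overlap. In limma the mean of both mimics differed from AllStar by 0.55 with 9 arrays (1.46-fold, adjusted p 0.0737) and by 0.45 with 8 (1.37-fold, adjusted p 0.0416). For each mimic alone the adjusted p was 0.0791 (Qmimic, 0.44) and 0.0581 (Dmimic, 0.47) with 8 arrays.

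PLAU, the urokinase-type activator, was the 1 member that lay on opposite sides of AllStar in the 2 mimics. Its signal was 11.36, 11.41 and 11.41 in Qmimic and 11.70, 11.71 and 11.91 in Dmimic, against 11.64, 11.65 and 11.56 in AllStar. Neither mimic overlapped AllStar. With 9 arrays 30.2% of all genes did not overlap AllStar in Qmimic, and 24.2% did not in Dmimic. The share of all genes on opposite sides in the 2 mimics was not computed. Against AllStar, with 9 arrays, the limma difference of PLAU was -0.22 for Qmimic (adjusted p 0.281) and 0.16 for Dmimic (adjusted p 0.455). Qmimic minus Dmimic was -0.38 (1.30-fold, 95% interval -0.57 to -0.18), with an adjusted p of 0.9999 with 9 arrays and 0.0729 with 8 in limma.

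The second PLAU probe set gave the same order of the mimics. It had 11.12, 11.13 and 11.16 in Qmimic and 11.46, 11.55 and 11.73 in Dmimic, against 11.46, 11.44 and 11.18 in AllStar, and Qmimic minus Dmimic was -0.44 (1.36-fold, adjusted p 0.9999 with 9 arrays and 0.05 with 8, limma). PLAUR, the urokinase receptor, had 10.57, 10.65 and 10.56 in Qmimic and 10.36, 10.50 and 10.39 in Dmimic, against 10.55, 10.70 and 10.52 in AllStar. Qmimic overlapped AllStar and Dmimic lay below both. The limma difference of Dmimic from AllStar was -0.18 with 9 arrays and -0.21 with 8 (adjusted p 0.425 and 0.179).

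The cathepsins, acid proteases of the lysosome that tumour cells can also secrete, were close to AllStar. CTSB, a cysteine protease, had 10.83, 10.63 and 10.63 in Qmimic and 10.69, 10.67 and 10.80 in Dmimic, against 10.64, 10.56 and 10.21 in AllStar. CTSD, an aspartic protease, had 9.38, 9.20 and 9.18 in Qmimic and 8.99, 9.03 and 9.22 in Dmimic, against 9.22, 9.05 and 8.78 in AllStar. CTSL, a cysteine protease that degrades collagen and elastin, had 9.57, 9.38 and 9.35 in Qmimic and 9.32, 9.33 and 9.57 in Dmimic, against 9.37, 9.28 and 9.12 in AllStar.

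Mimic and AllStar arrays overlapped for CTSD and CTSL in both mimics and for CTSB in Qmimic. In the fit of 9 arrays the differences were 0.23, 0.23 and 0.18 for Qmimic and 0.25, 0.06 and 0.15 for Dmimic, for CTSB, CTSD and CTSL in turn. Without AllStar replicate 3, the lowest AllStar array for all 3, they were 0.10, 0.11 and 0.11 for Qmimic and 0.12, -0.06 and 0.08 for Dmimic. The other 4 CTSB probe sets disagreed in sign, between -0.50 and 0.10 for Dmimic with 8 arrays, and none passed in limma.

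BSG (basigin, also called EMMPRIN), which induces MMPs in neighbouring cells, had 9.15, 9.07 and 9.24 in Qmimic and 9.32, 9.24 and 9.42 in Dmimic, against 9.37, 9.24 and 9.18 in AllStar. Both mimics overlapped AllStar, with limma differences of -0.11 and 0.06 with 9 arrays. HPSE, heparanase, which cleaves heparan sulphate chains, had 6.58, 6.55 and 6.68 in Qmimic and 6.59, 6.74 and 6.31 in Dmimic, against 6.96, 6.98 and 6.24 in AllStar. As with RECK, all mimic arrays lay between AllStar replicate 3 and the other AllStar arrays. The difference was -0.12 and -0.18 for Qmimic and Dmimic with 9 arrays, and -0.36 and -0.42 with 8 (adjusted p 0.119 and 0.0761, limma).

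A second HPSE probe set had the largest difference of any of the 107 probe sets. It had 4.29, 5.13 and 5.26 in Qmimic and 5.38, 5.53 and 4.80 in Dmimic, against 6.02, 6.11 and 5.74 in AllStar. All mimic arrays were below all AllStar arrays, with a wide spread within each mimic. In limma the difference for Qmimic was -1.06 with 9 arrays (2.09-fold, adjusted p 0.183) and -1.17 with 8 (2.25-fold, adjusted p 0.0606), and for Dmimic -0.72 and -0.83 (adjusted p 0.301 and 0.138).

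**Figure D3:**
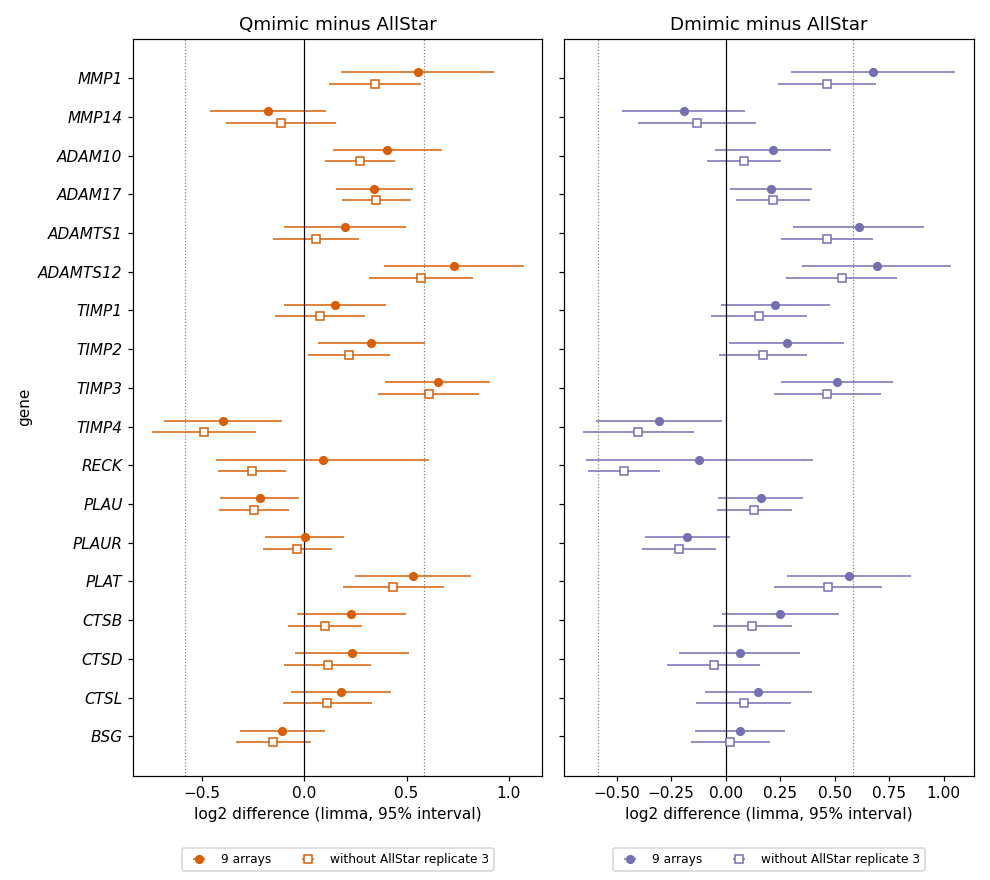
Log2 differences of Qmimic and of Dmimic from AllStar for the 18 members named by rule, with limma's 95% intervals (not adjusted for the number of genes), from 9 arrays (filled circles) and without AllStar replicate 3 (open squares); dotted lines mark 1.5-fold. TIMP3 is at 0.65 and 0.61 for Qmimic in the 2 fits, and RECK is at -0.12 and -0.47 for Dmimic.

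Between the mimics, 9 members had arrays that did not overlap, against 17.5% of genes. ADAM9, ADAM10, ADAMTS9, PLAUR and RECK were higher on all Qmimic arrays (5 of 43, against 8.12% of genes), and MMP2, ADAM12, ADAMTS1 and PLAU were lower (4 of 43, against 9.4%). ADAMTS1 had the largest of these differences, at -0.41 (Qmimic minus Dmimic, 1.33-fold, adjusted p 0.9999 with 9 arrays and 0.116 with 8, limma). Its second probe set gave -0.47 (1.39-fold), with an adjusted p of 0.9999 with 9 arrays and 0.0362 with 8. AllStar replicate 3 is in neither group here and enters through the estimate of the spread. For MMP1, TIMP3, ADAMTS12 and PLAT the difference between the mimics was -0.12, 0.14, 0.04 and -0.03, with 95% intervals of -0.50 to 0.26, -0.11 to 0.40, -0.30 to 0.38 and -0.32 to 0.25 with 9 arrays.

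With all 9 arrays, 18 members had Qmimic arrays that did not overlap AllStar (10 higher and 8 lower), against 30.2% of genes (19.2% higher and 11% of them lower). For Dmimic there were 17 (12 higher and 5 lower), against 24.2% of genes (17.1% higher and 7.13% lower). In 11 members all 6 mimic arrays lay beyond AllStar, against 17% of genes. MMP1, MMP19, ADAM17, ADAMTS12, TIMP2, TIMP3 and PLAT were higher (7 of 43, against 12.8% of genes), and MMP28, ADAM15, ADAM28 and ADAMTS5 were lower (4 of 43, against 4.21%). With 2 AllStar arrays there is less to overlap with, and the counts were 22 for Qmimic (43.7% of genes), 22 for Dmimic (39.8%) and 15 for both (26.3%).

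The signs were nearly balanced. Of the 43 members, 24 had a positive difference for each mimic with 9 arrays, with a median of 0.03 for both, against -0.02 and -0.01 over all genes for Qmimic and Dmimic. Without AllStar replicate 3, 23 and 26 were positive, with medians of 0.03 and 0.05, against -0.01 and 0.01 over all genes. The 30 members with several probe sets had 64 further ones, of which 39 had the sign of the representative probe set for Qmimic and 33 for Dmimic in the fit of 8 arrays.

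**Figure D4:**
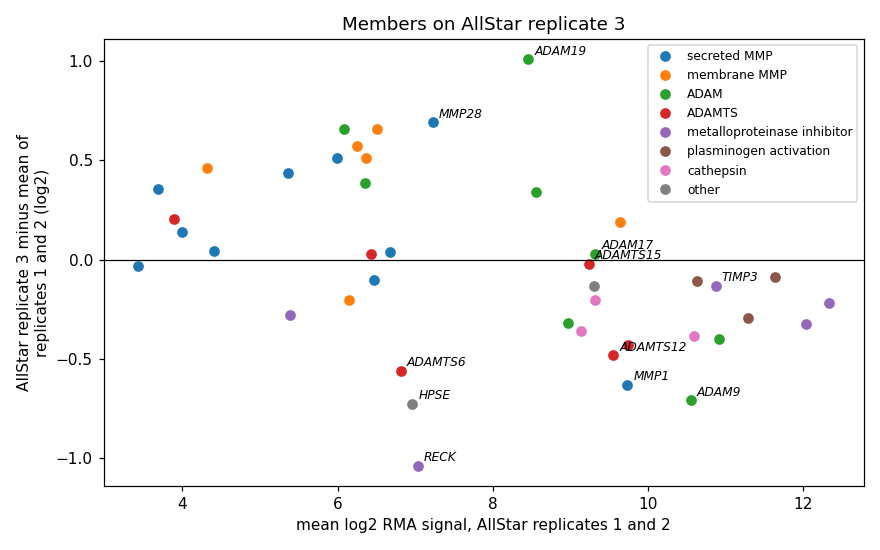
AllStar replicate 3 minus the mean of AllStar replicates 1 and 2 (log2) against that mean, for the 43 members by class. Of the 18 members with a mean signal of 9 or more over all arrays, 16 lie below 0; ADAM19 (1.01) and RECK (-1.04) are farthest from it.

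The members' shifts on AllStar replicate 3 differed between signal ranges. Of the 18 members with a mean of 9 or more, 16 were lower on that array than the mean of AllStar replicates 1 and 2, with a median of -0.26, against -0.34 over 4054 genes of that signal. Of the 15 members between 5 and 7, 9 were higher on it, with a median of 0.04 against 0.26 over genes of that signal. The 4 members between 7 and 9 went against the genes of that signal: 3 were higher on it, with a median of 0.52 against -0.41. Of the 6 members under 5, 5 were higher, with a median of 0.17 against 0.20. For the 18 members of 9 or more the median difference from AllStar was 0.23 for Qmimic and 0.22 for Dmimic with 9 arrays, against 0.14 and 0.15 over genes of that signal. Without that array it was 0.11 and 0.13, against 0.04 and 0.03. MMP1, ADAMTS1, ADAMTS12, TIMP3, PLAT, ADAM10, ADAM17 and the cathepsins are all among these 18. In each lower range the members' medians lay below those of the genes, for both mimics and in both fits. With 9 arrays they were -0.16 for Qmimic and -0.12 for Dmimic between 5 and 7, against -0.13 and -0.10. Between 7 and 9 they were -0.23 and -0.15, against 0.16 and 0.14. Under 5 they were -0.16 and -0.11, against -0.11 and -0.08.

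Single mimic arrays also stood out among the members. Dmimic replicate 3 was the highest Dmimic array in 28 of the 43 members, against 40.5% of all genes, and in 14 of the 18 members with a mean signal of 9 or more, against 38.8% of genes of that signal. Qmimic replicate 1 was the highest Qmimic array in 25 of 43, against 39.6% of genes. MMP1, ADAMTS12, TIMP1, TIMP2, TIMP3 and PLAT were all highest on Dmimic replicate 3 within that group, and all 6 were also highest on Qmimic replicate 1 within theirs.

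Other genes of these systems were counted in 5 lists: plasminogen activation (9 of 12 genes measured), further cathepsins and cystatins (18 of 18), further ADAM and ADAMTS genes (18 of 19), further MMPs (6 of 7), and membrane serine proteases, convertases and their inhibitors (20 of 20). With 9 arrays none of them was called in any of the 4 comparisons, against 0% to 0.131% of all genes. Without AllStar replicate 3, THBD was called lower in both mimics, and no other gene of the lists was called. Of all genes, 0.693% were called for Qmimic and 1.27% for Dmimic in that fit. THBD, thrombomodulin, the endothelial cofactor of protein C activation, had 7.99, 8.18 and 8.07 in Qmimic and 8.13, 8.08 and 8.13 in Dmimic, against 8.76, 8.80 and 8.21 in AllStar. All mimic arrays were below all AllStar arrays, replicate 3 being closest to them.

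In limma the THBD difference was -0.70 for Qmimic (1.63-fold, adjusted p 0.00482) and -0.67 for Dmimic (1.59-fold, adjusted p 0.00625) with 8 arrays, and -0.51 and -0.48 with 9 (adjusted p 0.207 and 0.238). By adjusted p alone CST1, a secreted cystatin that inhibits cysteine proteases, fell with Dmimic by 0.51 on the log2 scale (adjusted p 0.0308, limma, 8 arrays). With 9 arrays the CST1 difference was -0.34 (adjusted p 0.366, limma), and AllStar replicate 3 (7.66) lay within the Dmimic arrays (7.54 to 7.86). ADAMTS18, an orphan member of its family, fell with Dmimic by 0.38 (adjusted p 0.0465, limma, 8 arrays) at a signal of 3.86 to 3.95 in Dmimic against 4.12 to 4.37 in AllStar. With 9 arrays it was -0.33 (adjusted p 0.224, limma). By adjusted p alone, 1.53% of all genes were lower in Dmimic in the fit of 8 arrays. The medians of the 5 lists for Qmimic lay between -0.20 (ADAM and ADAMTS genes) and 0.16 (cathepsins and cystatins) with 9 arrays, against -0.02 over all genes, and between -0.05 and 0.10 with 8, against -0.01. For Dmimic they lay between -0.15 and 0.11 with 9 arrays, against -0.01, and between -0.08 and 0.01 with 8, against 0.01.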

How the data were processed

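The authors deposited log2 RMA values per probe set for 9 arrays, the output of RMA, which corrects background, quantile-normalises and summarises probes; the series text names AFFYGUI and limma, and RMA and limma stand without versions in the submitters' processing notes. The table held 54675 probe sets, of which 62 controls were set aside and 54613 tested without a filter. The annotation names 1 gene for 41091, several for 1801 and none for 11721. In limma 3.58.1 (R 4.3.3), 1 model with 3 group means was fitted to 9 arrays and to 8 without AllStar replicate 3, with eBayes moderated statistics. Adjusted p is Benjamini-Hochberg over all probe sets, and a call needs adjusted p under 0.05 and at least 1.5-fold. Arrays have no read depth. For Qmimic against AllStar, the 95% interval of a member's difference had a median width of ± 0.27 with 9 arrays. It was narrower, ± 0.20, with the 8 arrays that leave out AllStar replicate 3.

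Named members had an adjusted p under 0.05 in any comparison of either fit, were among the 3 largest differences of each mimic with 9 arrays, or were in a fixed set of genes. Others named in the text were chosen after their values were seen. The members and lists were chosen with earlier results of these data known. The limma fit was tested on simulated data. Same-numbered replicates were checked for pairing, with deviations correlated at -0.275 to 0.219 over 9 pairs, 3 of them over 0.1, so no pairing was used.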

Additional observations from a re-analysis of the deposited data

Results flagged for a closer look

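PLAU, the urokinase gene, lay on opposite sides of AllStar in the 2 mimics: all 3 Qmimic arrays (11.36 to 11.41) were below, and all 3 Dmimic arrays (11.70 to 11.91) above, every AllStar array (11.56 to 11.65). The share of all genes with such a pattern was not computed, so it cannot be called particular to PLAU. For PLAU, Qmimic minus Dmimic was -0.38. The difference itself did not pass in limma, with an adjusted p of 0.9999 with 9 arrays and 0.0729 without AllStar replicate 3. Under array weights with 9 arrays it passed (-0.35, adjusted p 0.0401, limma), as did Qmimic against AllStar (-0.25, adjusted p 0.0117 against 0.281 without weights). These weights rest the AllStar mean mostly on replicate 2 (5.17, against 0.896 and 0.0572 for replicates 1 and 3). The difference kept its sign under all 17 alternatives with 9 arrays, with adjusted p from 0.0401 to 1. Several of these alternatives left the estimate at exactly its reported value and so do not test its sign. They were the replicate block, the restriction to probe sets of higher mean signal, only the groups compared, and leaving out any AllStar array. Under the others it lay between -0.42 and -0.31.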

How the results depend on the processing

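The counts of called members were recomputed under each alternative for both fits. Limma's array weights with 9 arrays were 0.896, 5.17 and 0.0572 for AllStar replicates 1, 2 and 3. The AllStar mean thus rested mostly on replicate 2. With these weights 2 members were called for Qmimic against AllStar (ADAMTS12 and TIMP3) in place of 0. Of all probe sets, 1.09% were called in place of 0. Leaving out 1 array in turn gave 0 to 1, the 1 being TIMP3 without AllStar replicate 3, and 0 to 0 for the other comparisons. All other alternatives with 9 arrays gave 0 members called.

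Without AllStar replicate 3, the 1 member called for Qmimic became 0 with the replicate number as a block (replicate block), with cyclic loess, with a log2 change of at least 1.5 or with the mean of all probe sets of a gene. It became 2 with each array centred on its median (ADAMTS12 and TIMP3; 0.645% of all probe sets, against 0.54% in the fit as reported) and 3 with adjusted p alone (1.75%), and leaving out 1 more array gave 0 to 2, the 2 without Qmimic replicate 3 (0.612%). For Dmimic the 0 became 4 with adjusted p alone (2.31%), and 0 to 1 over single arrays left out (ADAMTS12 without Dmimic replicate 2, 1.65%). For the mean of both mimics it became 6 with adjusted p alone (3.02%) and 1 with the mean of probe sets (HPSE, 0.72%), and 0 to 1 over single arrays (TIMP3 without Qmimic replicate 3, 0.745%). For Qmimic against Dmimic the count stayed 0. The causes were not tested beyond the alternatives' own construction.

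The sign of RECK for Qmimic with 9 arrays turned under array weights, which rest mostly on AllStar replicate 2, to -0.23 (adjusted p 0.0376, limma) from 0.09. Of 1403 alternative values of single members and comparisons, 1208 kept their direction and side of the threshold, 97 lost an adjusted p under 0.05 and 46 gained one. Most of the 1403 belong to results that did not pass as reported and had no pass to lose. Some alternatives could not move an estimate, such as leaving out an AllStar array for Qmimic against Dmimic. The 97 losses all come from the passes of the fit of 8 arrays, as no member passed with 9. Those passes were kept in between 6 of 16 alternatives (ADAM17, Qmimic) and 12 of 16 (RECK, Dmimic). The other 52, from 21 results, changed sign. They were the RECK value above, and 51 where adjusted p passed neither as reported nor under the alternative. The reported sizes of these 51 were up to 0.25. The 8 members' passes with 8 arrays were lost when AllStar replicate 1 or 2 was also left out. That leaves 1 AllStar array, and almost no probe set of any gene is called there, so the loss is not particular to these members. TIMP3 for Qmimic with 8 arrays ranged from 0.31 to 0.71 (adjusted p 0.0125 to 0.243). Background correction and the slide could not be varied, since only processed values were used. Low-signal members (8 below the median of all probe sets) allow little to be read.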
